A study of Mus musculus with 6 samples.

Results

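Chromosome 11 of E14 mouse embryonic stem cells is described here in bins of 1 Mb for 2 oxidised forms of methylated cytosine, 5-hydroxymethylcytosine (5hmC) and 5-formylcytosine (5fC). Its members were all listed cytosines whose chromosome is given as chr11 in the mm9 tables, 1506130 of 20807956 5hmC sites and 575122 of 6248342 5fC sites. They fall in 122 bins. In 119 of these at least 500 5hmC sites were listed, and these bins carry all values below. The other 3, at the centromeric start, held 0 sites. The chromosome was chosen by measured values: its sites, its reads per site and its 5fC sites per 5hmC site exceeded those of most other autosomes, and its CG share fell short of theirs. These excesses are therefore descriptions and not findings, and the question asked of the bins was whether they were spread evenly or lay in segments. The reference was the 17 autosomes other than chromosomes 8 and 11, with 2147 bins.

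The assay, Pvu-Seal-seq, joins digestion by PvuRts1I, an enzyme that cuts DNA at a short distance from 5hmC, to chemical tagging and pull-down of the modified fragments. All 6 libraries were made from genomic DNA of E14, a mouse embryonic stem cell line grown on gelatin with serum and leukaemia inhibitory factor. A culture at passage 14 gave 2 technical replicates for 5hmC and 2 for 5fC, and another culture at passage 12 gave 2 technical replicates for 5hmC. Each table holds 1 read count per listed cytosine, summed over libraries. The sources used here do not state which 5hmC libraries were summed, so the passage 12 culture may or may not be included. With no count per library, replicate errors cannot be given, and libraries, cultures or marks were not tested against each other.

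TET enzymes oxidise 5-methylcytosine to 5hmC and then to 5fC, which thymine DNA glycosylase can remove so that base repair restores an unmodified cytosine. In embryonic stem cells 5hmC is known mainly from CG dinucleotides in gene bodies, enhancers and the flanks of active promoters, and 5fC has been described at enhancers and other sites of active turnover. A CG dyad is the pair of facing CG cytosines on the plus and minus strands, and either or both can carry a mark. Mouse chromosome 11 is acrocentric, with its centromere at the low coordinates, and is rich in genes. Among its genes are Trp53, which encodes the p53 tumour suppressor, Brca1 of DNA repair, Stat3, through which leukaemia inhibitory factor acts in embryonic stem cells, Xbp1 of the unfolded protein response, the receptor genes Egfr and Erbb2, the imprinted gene Grb10, the alpha-globin gene Hba-a1 and the Hoxb genes Hoxb1 and Hoxb9. Genes were not placed in bins here, because the gene table used is of another build than mm9.

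Marked cytosines were dense along nearly the whole chromosome, and the sparse bins of other autosomes had few counterparts on it. The median bin of chromosome 11 held 12710 5hmC sites and 4601 5fC sites, against 7394 and 1850 in the median reference bin. Medians of single reference autosomes ran from 6024 to 10139 5hmC sites and from 1348 to 2851 5fC sites. Those of chromosome 8 were 9660 and 3175. Past the 90th percentile of reference bins lay 38 of the 119 bins by 5hmC sites and 49 by 5fC sites, where the background among reference bins is 10% for each mark. Under the 10th percentile lay 0 bins, against a background of 10%. The margin varied with the density of bins. At the 5th percentile chromosome 11 had 1.66 times the 5hmC sites of the reference and 2.30 times the 5fC sites, at the lower quartile 2.11 and 3.37 times, at the median 1.72 and 2.49 times and at the 90th percentile 1.33 and 1.75 times. The densest reference bin held 25219 5hmC sites, and 2 bins of chromosome 11 exceeded it.

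Density rose towards the telomeric end, with a Spearman correlation of 0.54 between position and 5hmC sites over the 119 bins of this one pooled table. The bins with most 5hmC sites lay near that end. The bin from 117000001 to 118000000 held 26037 and the bin from 116000001 to 117000000 held 26022, and the next 3 in order, which start at 115000001, 119000001 and 113000001, held 24689, 24455 and 24258. The bins with fewest sites lay in 4 places over the rest of the chromosome. The lowest count was 2435, from 15000001 to 16000000, followed by 2534 from 38000001, 2653 from 92000001, 2692 from 14000001 and 2873 from 27000001. Even these sparse bins stood above the 5th percentile of the reference, at 1874.1 sites.

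Read counts per site were also higher than on the reference autosomes, and the excess grew with the depth of the site. The mean was 15.8 reads per 5hmC site, against 11.8 on chromosome 3 to 13.2 on chromosome 2, and 18.1 reads per 5fC site, against 15.5 to 18.4. For 5fC, 16 of the 17 reference autosomes lay below chromosome 11. The exception was chromosome 2, the highest reference autosome for both marks, which includes a 1 Mb bin with 608 reads per 5hmC site. By median reads per 5fC site, chromosome 11 had 13 and each reference autosome 12. Among CG sites of 5hmC the median was 12 reads on chromosome 11 and 10 on the reference autosomes, while the 99th percentile was 92 and 65 reads. Among non-CG sites of 5hmC the median was 5 reads on both, and the 99th percentile 39 and 30. For 5fC at CG the median was 14 against 13 reads and the 99th percentile 91 against 73. Thus 25.3% of 5hmC sites on chromosome 11 had 20 or more reads, compared with 16.5 to 18.7% on the reference autosomes.

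Because reads per site rise with the density of sites, each bin was set against the median of reference bins in the same of 20 groups of 5hmC site number. This quotient is called the matched ratio below. The top group, with reference bins of 17198 to 25219 sites, took 27 of the 119 bins of chromosome 11. Matching was coarse there, and differences in density within that group remain in the values of its bins. For 5hmC reads per site, 112 of 119 bins of chromosome 11 had a matched ratio above 1, where the background among reference bins is 49.8%. The share was 94.1% (95% Wilson interval 88.4 to 97.1%, which covers counting error only and takes neighbouring bins as independent). A ratio of at least 1.1 was found in 98 bins, against a background of 11.1%. The median ratio was 1.21 and the middle 50% of bins lay between 1.15 and 1.26. Medians of the 17 reference autosomes ran from 0.977 to 1.01. Chromosome 8, left out of the reference because it shows a like excess, had 121 of 126 bins above 1.

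**Figure D1:**
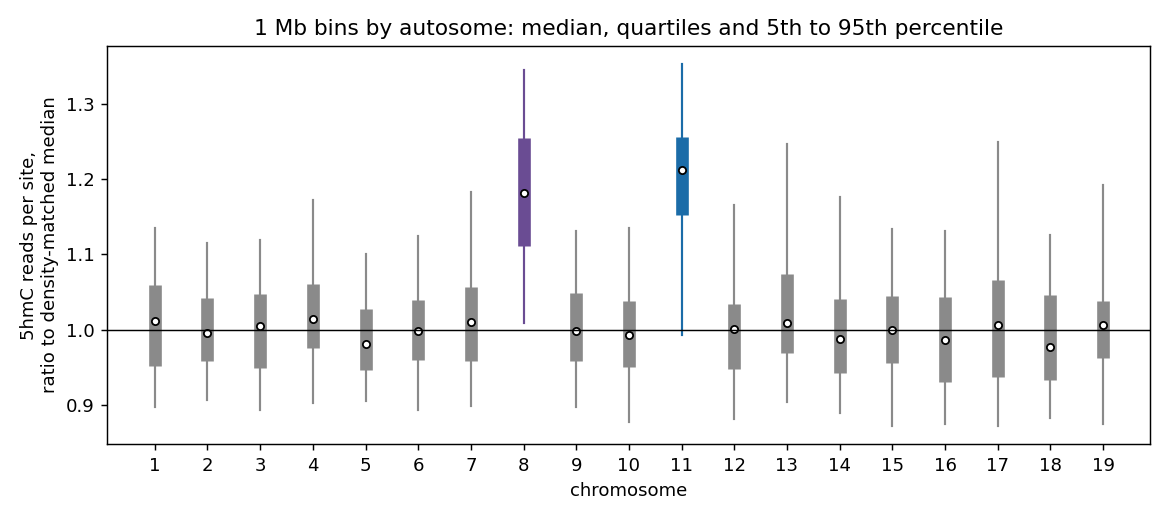
Matched ratio of 5hmC reads per site in 1 Mb bins (vertical axis) for each autosome (horizontal axis), with the median as an open point, the quartiles as a bar and the 5th to 95th percentiles as a line. Chromosome 11, in blue, has its median at 1.21 and its lower quartile at 1.15, above the medians of all 17 reference autosomes, in grey, while chromosome 8, in purple, lies near it.

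The spread among bins of chromosome 11 was like that within other autosomes. The interquartile range of the matched ratio was 0.12 on the log2 scale, compared with 0.11 to 0.18 within the reference autosomes. Neighbouring bins resembled each other with a Spearman correlation of 0.51. This was within the 0.19 to 0.55 of the reference but towards its upper end, with 16 of the 17 reference autosomes lower and their median at 0.39. The ratio had little relation to position along the chromosome, with a Spearman correlation of -0.12 over 119 bins. It was somewhat higher in dense bins. With the bins parted into 4 sets from fewest to most 5hmC sites, the median ratio was 1.17, 1.17, 1.21 and 1.24, and the bins above 1 numbered 24 of 30, 30 of 31, 28 of 28 and 30 of 30.

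The excess in 5hmC reads per site was present in every 10 Mb segment of the chromosome cut at round positions. Of the 12 segments with at least 5 bins, the medians of the matched ratio ran from 1.16 to 1.29. The 220 reference segments ran from 0.905 to 1.12, so that all 12 lay above all reference segments, the highest of which was the first of chromosome 1. The highest value on chromosome 11, 1.29, was that of its first segment, with 7 bins, and the next were 1.26 from 70 to 80 Mb and 1.25 from 20 to 30 Mb. The lowest was 1.16, shared after rounding by the segments from 30 to 40 Mb, 40 to 50 Mb and 110 to 120 Mb. For 5fC reads per site the 12 medians ran from 1.09 to 1.196, against 0.930 to 1.085 in the reference, and again all 12 lay above.

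**Figure D2:**
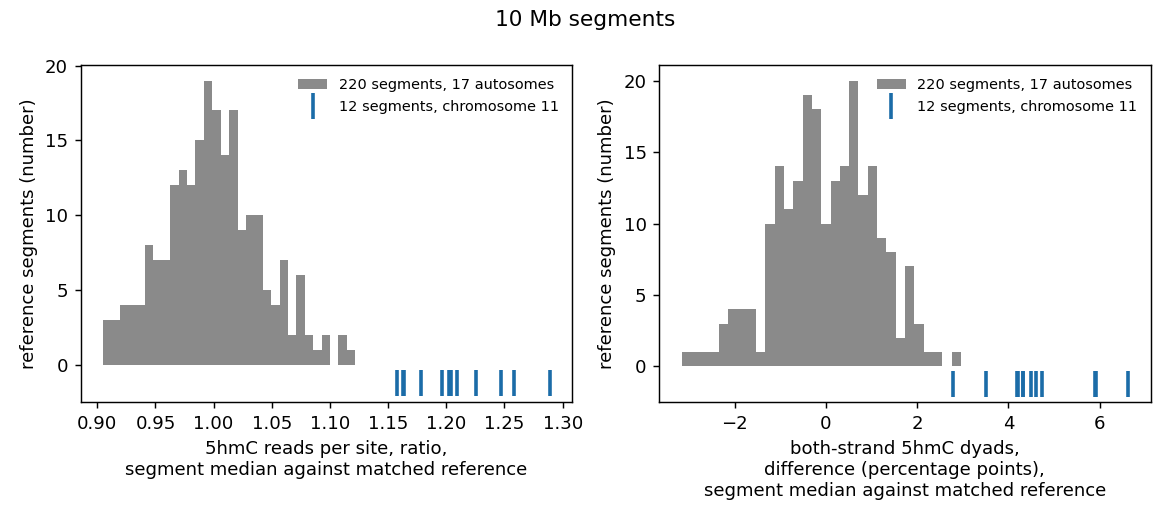
Medians over 10 Mb segments of the matched ratio of 5hmC reads per site (left) and of the matched difference in the share of 5hmC dyads listed on both strands (right, percentage points), with the number of 220 reference segments as grey bars and the 12 segments of chromosome 11 as blue ticks under the axis. All 12 ticks lie to the right of the bars on the left, from 1.16 to 1.29, and 11 of 12 do on the right.

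Segments cut at round positions hide part of the variation. When 10 consecutive bins were taken from every possible start, the lowest median on chromosome 11 was 1.05, from 33000001 to 43000000, and the highest 1.29, from 3000001 to 13000000. The highest such median in the reference was 1.13, on chromosome 1, and 103 of the 110 starts on chromosome 11 exceeded it. The medians thus stayed above 1 at this scale. The lowest, from 33 to 43 Mb, was not set apart from the reference. The highest such medians of single reference autosomes ran from 1.05 to 1.13.

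Interruptions were short and lay in 3 places, of which the first 2 each include one of the 5 sparsest bins. From 37000001 to 40000000, 3 bins had ratios of 0.954 to 0.971 and held 2534 to 3653 5hmC sites each, of which 88.2 to 89.98% were at CG. From 90000001 to 93000000, 3 bins had ratios of 0.944 to 0.994, with 2653 to 9684 sites. A lone bin from 111000001 to 112000000 had the lowest ratio of the chromosome, 0.915, with 6659 sites and 10.3 reads per site. These 7 bins were also low in 5fC. They had 0.113 to 0.146 5fC sites per 5hmC site in the first interruption, 0.131 to 0.238 in the second and 0.159 in the lone bin. Against reference bins of like site number, the median ratios of this measure were 0.833, 0.886 and 0.675. The longest stretch with every bin at 1.1 or more ran from 3000001 to 36000000 and held 33 bins.

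Windows of 100 kb showed the same layout at finer scale. Of 1188 windows with at least 50 5hmC sites, 1094 (92.1%) had a matched ratio above 1, against 43.7 to 55.9% on the reference autosomes. The longest run of windows not above 1 was 10 windows, from 111400001 to 112400000, while the longest runs on the reference autosomes were 17 to 48 windows. Runs of at least 5 such windows numbered 5 and held 34 windows, 2.86% of the chromosome's. Besides the longest, they lay from 37900001 to 39400000 and from 91800001 to 92900000, within the interruptions.

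**Figure D3:**
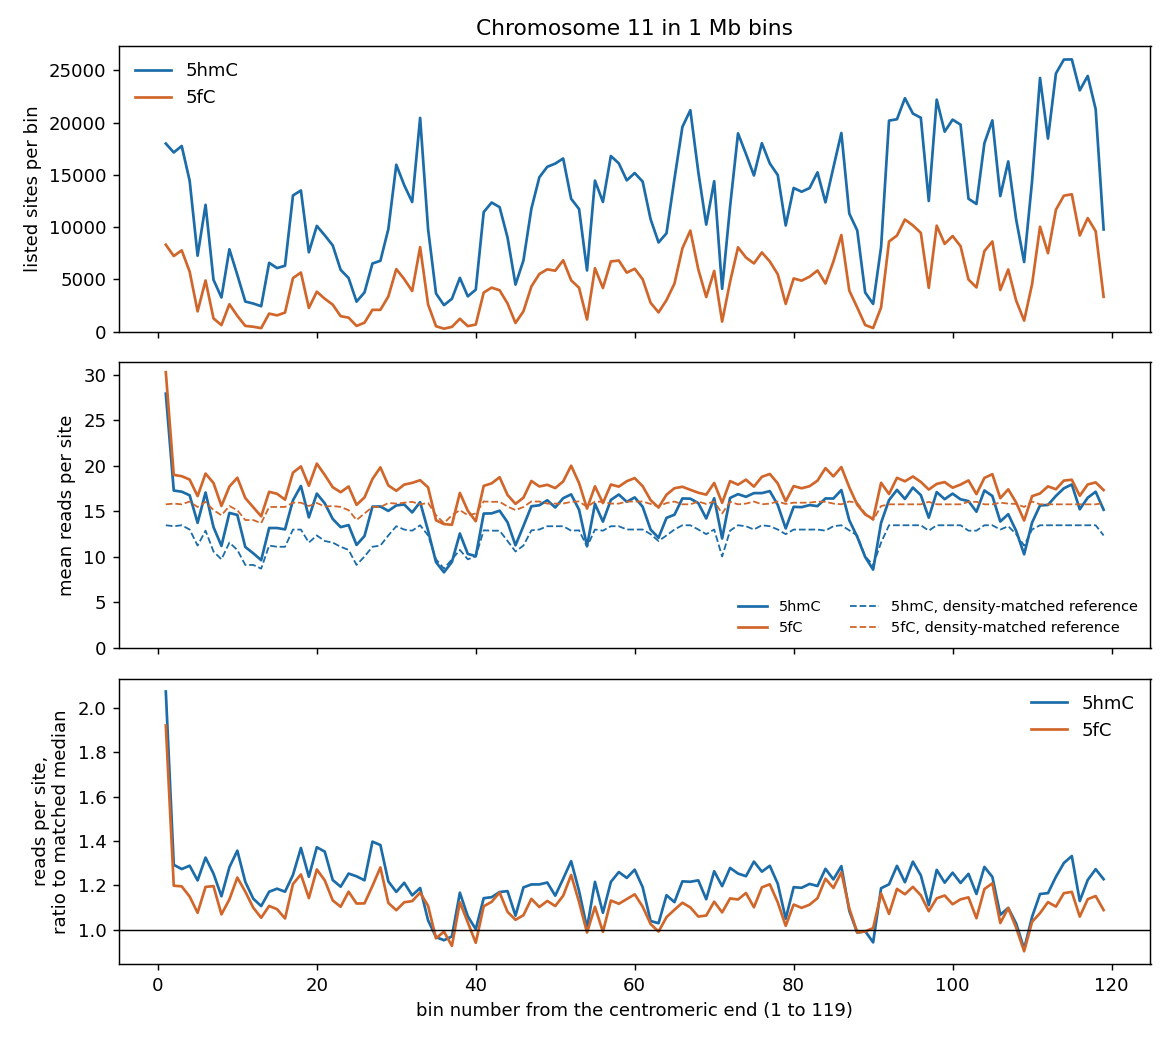
Listed sites (top), mean reads per site (middle) and the matched ratio of reads per site (bottom) in the 119 bins of chromosome 11, numbered from the centromeric end, for 5hmC in blue and 5fC in orange, with dashed lines for the median of density-matched reference bins. Both ratios stay above 1 along most of the chromosome, and peak in bin 1 at 2.07 and 1.92, and the 5hmC ratio falls below 1 at bins 35 to 37, 88 to 90 and 109.

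With matching by 5hmC site number, the bins with the highest matched ratios for 5hmC lay in the centromeric part of the chromosome, between 3000001 and 31000000. The first bin, from 3000001 to 4000000, reached 2.07 and is described below. It was followed by the bin from 29000001 to 30000000 at 1.40, with 15.5 reads per site where matched reference bins had 11.1, and by its neighbour from 30000001 at 1.38. The bins from 22000001 and 20000001 each reached 1.37. These 4 bins held 6518 to 13502 5hmC sites, so they were not the densest of the chromosome. Their dyads were listed on both strands more often than in matched bins, by 7.74 to 9.23 percentage points. The placement of the highest ratios depended on the matching. Matched by 5fC sites per 5hmC site, as described below, the bin from 117000001 came next after the first, at 1.298. The bin from 20000001 then had 1.286, and those from 29000001, 30000001 and 22000001 had 1.198, 1.215 and 1.225. That matching was loose for bins rich in 5fC, such as the bin from 117000001.

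For 5fC reads per site the matched ratio was above 1 in 109 of 119 bins, where the background is 50%, and at least 1.1 in 79 bins, where the background is 5.64%. Its median was 1.12, against 0.981 to 1.02 on the reference autosomes. On chromosome 8 the median was 1.11, with 114 of 126 bins above 1. Bins high in one mark were high in the other: the Spearman correlation between the matched ratios of 5hmC and 5fC was 0.84 over the 119 bins. The same correlation was 0.70 over the 2147 reference bins. These points share the DNA preparation and neighbouring sites, and no p is given.

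Chromosome 11 had 0.382 5fC sites per 5hmC site, chromosome 8 had 0.357 and the reference autosomes 0.268 to 0.314. Set against bins of equal 5hmC site number, the median ratio of chromosome 11 was 1.15, with reference autosomes between 0.959 and 1.04. It exceeded 1 in 99 of 119 bins (background 49.9%) and reached 1.1 in 79 (background 22.6%). Counted as 5fC reads per 5hmC read, the excess was smaller. Its median matched ratio was 1.07, with reference autosomes between 0.959 and 1.02. The excess in 5fC sites per 5hmC site was less even than that in reads per site. Segment medians of the matched ratio ran from 1.02, from 30 to 40 Mb, to 1.26, from 20 to 30 Mb, while reference segments ran from 0.799 to 1.38, and 0 of the 12 segments lay above all of them. The 5 highest bins had 0.480 to 0.505 5fC sites per 5hmC site. They start at 117000001, 116000001, 97000001, 88000001 and 96000001.

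The bins lowest in unmatched 5fC sites per 5hmC site were largely those with the lowest matched ratio of 5hmC reads per site. The lowest was the bin from 38000001 at 0.113, then those from 92000001 at 0.131, 15000001 at 0.138, 37000001 at 0.142 and 39000001 at 0.146. The bin from 15000001 was sparse but not low when matched. Its matched ratios were 1.01 for 5fC sites per 5hmC site and 1.11 for 5hmC reads per site. The bin from 111000001, lowest in the latter ratio, was not among these 5. Across the 119 bins the matched ratio of 5hmC reads per site and that of 5fC sites per 5hmC site had a Spearman correlation of 0.85. The same correlation was 0.88 over the reference bins, at least as strong as on chromosome 11. When bins were matched by 5fC sites per 5hmC site in place of 5hmC site number, a comparison added after the data were seen, all 119 bins had more 5hmC reads per site than the matched median (background 50%). The lowest ratio was then 1.03 and the median 1.14, and the 7 bins of the interruptions had ratios of 1.03 to 1.11. This matching was loose for bins rich in 5fC. The upper quartile of chromosome 11 bins, 0.413 5fC sites per 5hmC site, exceeded the reference 95th percentile of 0.373. In 6 bins the value lay above that of every reference bin.

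**Figure D4:**
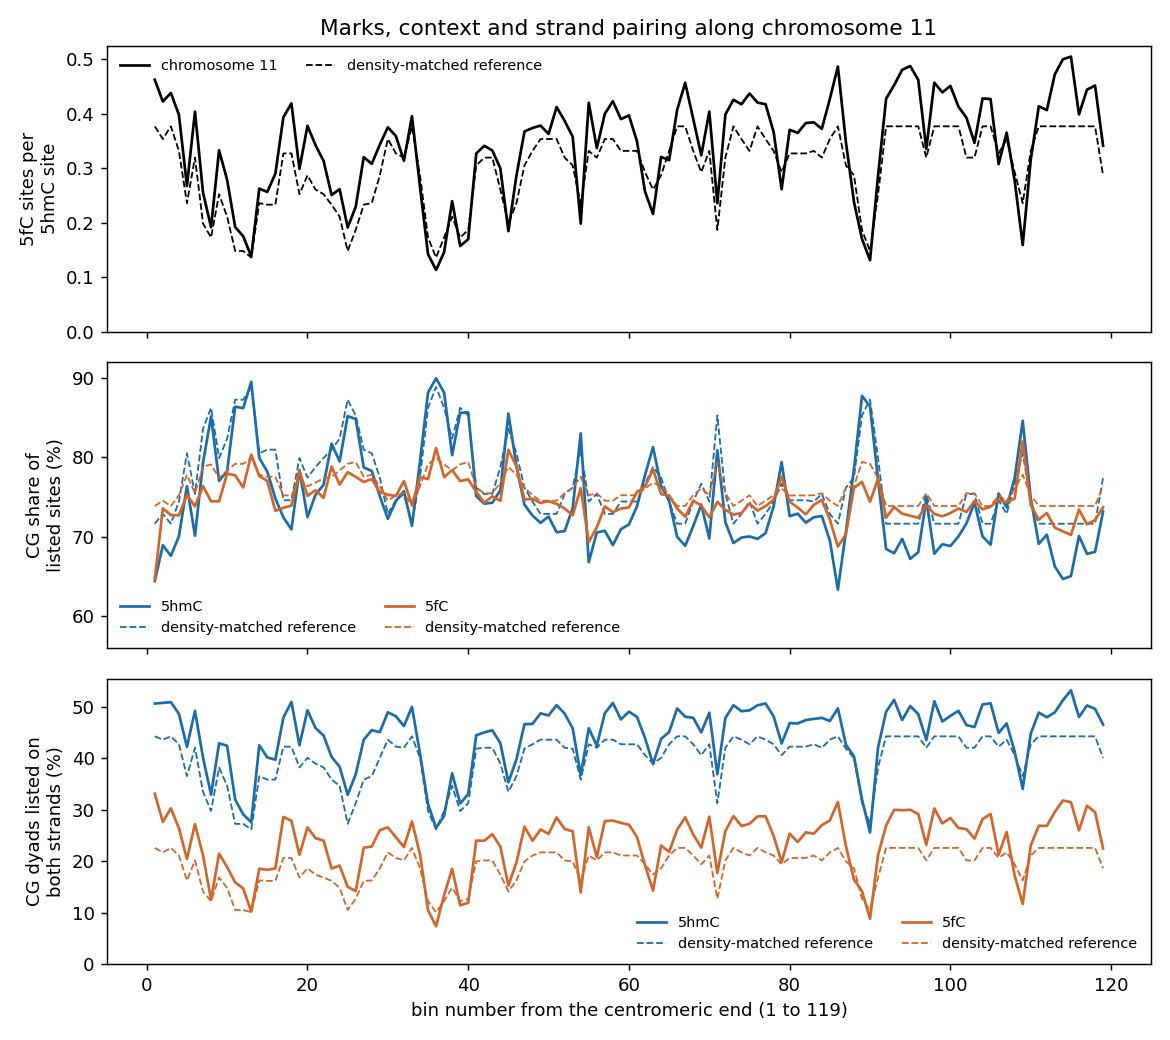
5fC sites per 5hmC site (top), CG share of listed sites (middle, axis from 56%) and share of listed CG dyads that are listed on both strands (bottom) in the 119 bins of chromosome 11, with dashed lines for density-matched reference bins. The share on both strands lies above its dashed line in 115 of 119 bins for 5hmC and 108 for 5fC, while the CG share of 5hmC sites lies below its line in 98 and rises in the sparse bins.

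The dinucleotide context differed in the direction of fewer CG sites. Of 5hmC sites on chromosome 11, 72.0% were at CG (95% Wilson interval 71.9 to 72.0%), against 75.4 to 78.6% on the reference autosomes. Matching by site number took up much of this gap: the median difference from matched bins was -2.23 percentage points, with 98 of 119 bins below (background 49.8%), against medians of -1.19 to 0.762 on the reference autosomes. The size of the difference rested on the matching, since it was -6.28 points with no matching and -0.113 when bins were matched by 5fC sites per 5hmC site. With sites of at least 10 reads it was -1.12 points. Of 5fC sites, 73.4% were at CG, against 74.7 to 76.4%, and 103 of 119 bins lay below their matched median (background 50.1%). Chromosome 8 lay near chromosome 11, with 72.5% of 5hmC sites and 73.1% of 5fC sites at CG.

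The CG share varied along the chromosome with the density of sites. It was lowest in the bin from 88000001 to 89000000, at 63.3%, a difference of -8.31 points from matched bins, and in the first bin at 64.4% and the bin from 116000001 at 64.7%. It was highest in the sparse bins from 38000001, 15000001 and 37000001, at 89.98, 89.5 and 88.2%. Among non-CG sites of 5hmC, CA made up 47.9%, CT 29.9% and CC 22.2%. The reference autosomes had 48.0 to 49.9% CA and 20.4 to 21.9% CC, so chromosome 11 lay just below the first range and just above the second. Matching by site number turned the CA difference: its median over bins was 0.57 points above matched bins, against -0.62 to 0.52 on the reference autosomes, while that of CC was 0.11 points and within the reference range of -0.53 to 0.60.

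Many non-CG sites stand at a fixed distance from a listed CG dyad, 20 to 23 bases downstream on their own strand, and for these the cut made at the CG and a mark at the non-CG cytosine cannot be told apart in the tables. On chromosome 11, 62.6% of non-CG 5hmC sites had such a partner, against 62.5% over the reference autosomes together. In matched bins the share was lower on chromosome 11, by a median of 4.14 points, and 110 of 119 bins lay below (background 50.1%). For 5fC the share was 65.2% against 55.7%, and the matched median difference was 5.53 points above. Without partnered non-CG sites the CG share was 87.3% for 5hmC, below the 89.0 to 90.8% of the reference autosomes, and 88.8% for 5fC, above their 86.4 to 88.3%. The CG deficit was therefore kept for 5hmC and turned in sign for 5fC.

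With bins matched by site number, CG dyads were listed on both strands more often along nearly the whole chromosome. At equal numbers of reads, as described below, the share differed by -1.41 points for 5hmC and 2.09 points for 5fC. Of 739386 dyads with 5hmC on chromosome 11, 46.6% were listed on both strands, against 37.6 to 40.3% on the reference autosomes. The median difference from matched bins was 4.71 points, with reference medians of -0.532 to 0.729, and 115 of 119 bins lay above (background 50.2%). Segment medians ran from 2.79 points, from 40 to 50 Mb, to 6.63 in the first segment. The highest share was 53.2% in the bin from 117000001, which is also the densest, and the lowest 25.6% in the sparse bin from 92000001. Chromosome 8 was much alike: 45.5% of its 5hmC dyads were listed on both strands, and 119 of 126 bins lay above their matched median.

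For 5fC, 26.4% of dyads were listed on both strands, against 18.4 to 20.4% on the reference autosomes. The matched median difference was 4.45 points, and 108 of 119 bins lay above (background 50%). Chromosome 8 had a share of 25.2%, with 100 of 126 bins above. On chromosome 11 the bin with the highest share for 5fC was the first, at 33.1%. This rested on its first 100 kb window, described below, with 70.9%. The other windows of the bin had 20.6 to 32.4%. Listed sites were evenly divided between the strands, with 50.1% of 5hmC sites and 50.0% of 5fC sites on the plus strand.

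The marks coincided more often as well. Of 5fC sites on chromosome 11, 78.4% had a 5hmC entry at the identical cytosine, against 75.7 to 76.4% on the reference autosomes, and at CG the share was 85.05%, against 82.5 to 83.2%. Chromosome 8 had nearly the same shares, 78.5% and 85.1%. Conversely 42.6% of 5hmC dyads on chromosome 11 also carried 5fC, against 39.5% on chromosome 8 and 28.0 to 33.8% on the reference autosomes. In matched bins this last share was higher on chromosome 11 by a median of 5.82 points. Medians of the reference autosomes ran from -1.04 to 1.28.

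Sites with more reads are more often at CG, on both strands and shared between marks, so these shares were also compared at equal numbers of reads. The observed share on chromosome 11 was set against the share that its sites or dyads would have at the reference rates for their read numbers, counted singly up to 100 reads. For 5hmC dyads the difference on both strands was then -1.41 points, beyond the -0.337 to 0.261 of single reference autosomes, whereas the raw share was higher. For 5fC it was 2.09 points (reference -0.765 to 0.693). The share of 5hmC dyads with 5fC was higher by 3.21 points (reference -1.51 to 1.67). The share of 5fC sites also listed for 5hmC was higher by 1.07 points (reference -0.276 to 0.257). Chromosome 8 differed by -1.13 and 1.67 points in the shares of 5hmC and 5fC dyads on both strands. Its share of 5hmC dyads with 5fC differed by 1.44 points, within the reference range. Its share of 5fC sites also listed for 5hmC differed by 1.33 points.

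The CG share was further from the reference at equal reads than before. The difference was -7.15 points for 5hmC (reference -1.81 to 2.04) and -2.83 points for 5fC (reference -0.790 to 0.859). On chromosome 8 the differences were -6.35 and -3.03 points. For 5hmC on chromosome 11 the gap was widest at sites with few reads. At 2 reads 42.3% of 5hmC sites were at CG on chromosome 11 and 53.2% on the reference autosomes, at 9 to 16 reads 76.9% and 83.6%, and above 64 reads 98.36% and 98.98%. A given number of reads marks a different place in the order of sites on the chromosomes compared, since 2.52% of sites on chromosome 11 and 0.781% on the reference autosomes had more than 64 reads.

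**Figure D5:**
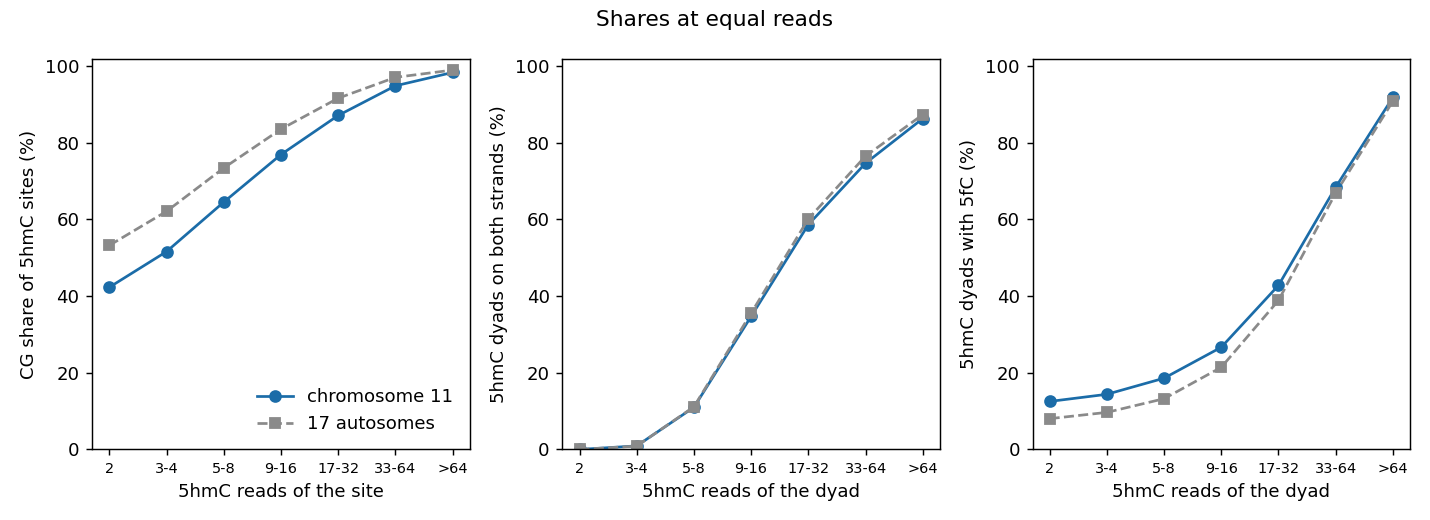
CG share of 5hmC sites by reads of the site (left), and share of 5hmC dyads on both strands (middle) and with 5fC (right) by 5hmC reads of the dyad, for chromosome 11 (blue circles) and the 17 reference autosomes together (grey squares), in percent. At 9 to 16 reads the CG share is 76.9% against 83.6%, the share on both strands 34.7% against 35.5% and the share with 5fC 26.7% against 21.4%.

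The first bin stood apart from the rest of the chromosome through a single 100 kb window at its start, next to the gap at the centromere. The bin held 17985 5hmC sites with 27.9 reads per site (standard error over sites 0.64) and 8313 5fC sites with 30.3 (standard error 0.645). The window from 3000001 to 3100000 held 19.1% of the bin's 5hmC sites and 51.3% of its 5hmC reads. It had 3433 5hmC sites with a mean of 75.1 reads and a median of 11. For 5fC it had 2350 sites with a mean of 60.7 reads and a median of 22.

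This window also differed in context and pairing. Only 35.4% of its 5hmC sites and 40.8% of its 5fC sites were at CG, while 65.9% and 70.9% of its dyads were listed on both strands. No other of the 8910 autosomal windows of 100 kb with at least 1000 5hmC sites had more 5hmC reads per site or a lower CG share. The first window of chromosome 9, with 771 sites and hence outside that set, had 280 reads per site and a CG share of 33.1%. The other first windows with sites had 7.02 to 42.0 reads per site. Away from chromosome starts, a 1 Mb reference bin of chromosome 2, between 90 and 100 Mb, reached 608 reads per 5hmC site, far above the first bin of chromosome 11. Whether reads of repeats near the centromere were placed in these windows was not tested.

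The deepest cytosines of chromosome 11 all lay in that window. It held all 124 5hmC sites with 500 or more reads and 22 of the 23 such 5fC sites. The deepest for both marks was the plus-strand CG at 3073617, with 2962 5hmC and 1347 5fC reads. The next for 5hmC were the CG sites at 3046577 on the minus strand with 1920 reads, 3047786 on the plus strand with 1909, 3035725 on the minus strand with 1836 and 3037106 on the plus strand with 1695. For 5fC they were 3093859 on the plus strand with 996 reads, 3077469 and 3077448 on the minus strand with 908 and 884, and 3077587 on the plus strand with 800. All 9 cytosines were listed for both marks, and only 3077469 had more 5fC than 5hmC reads, 908 against 269.

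Outside that window the first bin resembled the bins that follow. From 3100001 to 4000000 it had 16.8 5hmC reads per site, a CG share of 71.3% and 0.410 5fC sites per 5hmC site, and its ratio to the same matched median was 1.25. The median ratio over the chromosome was 1.21 with and without the first bin. Leaving out 1 of 119 bins can hardly move a median, so this does not test the weight of that bin.

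The tables hold no measure of the input DNA of each chromosome. A larger number of copies of chromosome 11 per cell and more marked cytosines per copy therefore cannot be told apart, for the chromosome as a whole or for any bin.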

How the data were processed

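The authors deposited 2 tables of whole-number read counts, not normalized, 1 count per listed cytosine and mark, with position, strand and dinucleotide. Bowtie, cutadapt, CASAVA and bcl2fastq are named, with the build mm9, per the submitters' processing notes. Not given in the sources used here are the caller, the rule for listing a site and the libraries summed for 5hmC. The least count was 2, and 0 positions were repeated. The tables sum to 264008048 5hmC and 102305049 5fC reads, which are not the sequencing depth.

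Sites were counted in bins of 1 Mb, and bins with at least 500 5hmC sites were kept. Limits of 20 groups of equal number by 5hmC sites were set on reference bins. Each bin gave a ratio (reads per site, 5fC sites per 5hmC site) or a difference in percentage points (shares) to the median of reference bins in its group. A bin denser than all reference bins fell in the top group. Segments are 10 Mb long. Wilson intervals are at 95% and cover counting error only, since reads without molecular identifiers are not independent. Positions are counted from 1.

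Bins named are the 5 highest and 5 lowest by matched 5hmC ratio, by 5fC sites per 5hmC site and by 5hmC sites, and the 3 highest and 3 lowest by CG share and by share on both strands. Cytosines named are the 5 with most reads of each mark. The chromosome, the measures and these lists were chosen with earlier results of these data known. Bins are not replicates, and no p-values are given. Alternatives were bin size, site minimum, matching, read minimum, context and chromosome ends. The counting was tested on simulated data and passed 10 of 10 checks. Python 3.11.15, numpy 2.4.6, pandas 2.3.3, scipy 1.17.1 and matplotlib 3.10.9 were used. Sequences and gene positions were not analysed here.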

Additional observations from a re-analysis of the deposited data

How the results depend on the processing

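The 6 summary values of chromosome 11 were recomputed under 15 settings, which gave 83 values. None changed direction, 58 stayed within the 95% interval of the value reported and 25 moved outside it. For the medians this interval was taken over bins, for example 1.19 to 1.22 for 5hmC reads per site. It takes neighbouring bins as independent, so these counts only describe the moves. The share of bins above the matched median of 5hmC reads per site was 94.1%. It was 98.3% with bins of 2 Mb, 87.4% with no matching, 74.8% with the median in place of the mean reads of a bin (where ties leave 12.7% of reference bins above), 97.5% matched by CG share and 100% matched by 5fC sites per 5hmC site. The median ratio of 5hmC reads per site, 1.21, was 1.24 with CG sites alone, 1.34 with no matching, 1.15 with sites of at least 10 reads, 1.11 with median reads, 1.17 matched by CG share and 1.14 matched by 5fC sites per 5hmC site. The 5fC ratio, 1.12, was 1.14 with CG sites alone, 1.16 with no matching, 1.095 with sites of at least 10 reads and 1.08 with median reads. The ratio of 5fC sites per 5hmC site, 1.15, was 1.19 matched by listed CG dyads, 1.44 with no matching, 1.06 with sites of at least 10 reads and 1.06 matched by CG share. The CG difference, -2.23 points, was -2.89 matched by CG dyads, -6.28 with no matching, -1.12 with sites of at least 10 reads and -0.113 matched by 5fC sites per 5hmC site. The pairing difference, 4.71 points, was 9.09 with no matching and 3.36 matched by 5fC sites per 5hmC site. The cause of these moves was not tested. Matching by CG share or by 5fC sites per 5hmC site, adding chromosome 8 to the reference and leaving out the first bin were chosen after seeing the data. No paired analysis was possible because counts of single libraries were not used here, and leaving out libraries was not run for the same reason. Matching by listed sites uses a number that is itself raised on chromosome 11, and a site with no entry is not shown to lack the mark.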
